A study of Homo sapiens with 12 samples.

Results

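The genes described here encode the NF-kappaB subunits RELA, RELB, REL, NFKB1 and NFKB2 and the feedback inhibitors NFKBIA, NFKBIB, NFKBIE, NFKBIZ and TNFAIP3. They were chosen by name, and all 10 were found among the 26485 genes listed for both cell lines (29657 in SCC15 and 31055 in SCC25). The RNA-seq libraries were made from SCC15 and SCC25 cells, which are established lines of head and neck squamous cell carcinoma (HNSCC), after 24 h with squamocin or with the vehicle DMSO. Each treatment of each cell line had 3 libraries, 12 in all. Squamocin is an annonaceous acetogenin, a plant polyketide that inhibits mitochondrial respiratory Complex I, and its samples are labelled ACGs. The study's methods give its concentration as 10 µg/mL. Each line derives from 1 tumour, and no source says that the 3 libraries of a group came from separate cultures, so the p-values measure the spread between these libraries, which may be technical.

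NF-kappaB is a family of dimeric transcription factors. In resting cells inhibitors of the IkB family hold the dimers in the cytoplasm. Receptors such as those for TNF and IL-1 activate the IkB kinase complex, which marks IkB proteins for degradation in the proteasome and releases the dimers (the canonical pathway), whereas the non-canonical pathway processes the NFKB2 precursor and frees dimers with RELB. Among the genes that NF-kappaB induces are several of its own inhibitors and subunits, which is why their mRNA is often read as a sign of pathway activity. The pathway is frequently active in HNSCC. The measurements are of mRNA in bulk samples, in which fewer cells of a type and less RNA per cell cannot be told apart. They include no protein or nuclear localisation. The study reported Western blots of RelA (p65) protein, which are not part of these data.

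Below, normalized counts are the deposited values, in which the reads of a gene were divided by the size factor of the library. The libraries held 16665563 to 22748845 reads counted to genes. Replicate 3 of squamocin-treated SCC15 cells stood apart. Its counts differed from those of replicates 1 and 2 by chi-square values of 67.9 and 60.1 per degree of freedom, whereas the other 10 pairs of replicates gave 1.73 to 10.7. The log2 fold changes of the members that it moves most are given with and without it. Of 8 squamous epithelial markers, 6 passed the minimum mean in SCC15 cells, where KRT5 and DSG3 were too low, and all 8 passed in SCC25 cells. With squamocin 3 of the 6 rose and 0 fell in SCC15 cells, beside 30.9% and 30% of all genes tested. In SCC25 cells 5 of the 8 rose and 2 (KRT5 and CDH1) fell, beside 38.3% and 38.5%. With the libraries scaled to equal totals, 2 rose and 3 fell in SCC15 cells, beside 14.8% and 50.5%. In SCC25 cells 5 then rose and 3 fell, beside 30.4% and 47.4%. TP63 was low in SCC15 cells, at means of 17.5 with DMSO and 10.5 with squamocin. The summed normalized counts of the 8 markers were 113048 to 119300 in SCC15 cells with DMSO and 208829 to 362916 with squamocin, and 27524 to 27814 and 49389 to 51938 in SCC25 cells. KRT17 made up most of the sum in SCC15 cells, with a mean of 112298 with DMSO. The summed counts of 5 fibroblast markers were 274 to 320 with DMSO and 204 to 235 with squamocin in SCC15 cells and 764 to 810 and 1073 to 1228 in SCC25 cells, where DCN was at 0 with squamocin. Those of 4 endothelial markers were 158 to 178 and 66.1 to 77.1 in SCC15 cells, where CDH5 and KDR were at 0 or not listed, and 233 to 296 and 19.8 to 37.7 in SCC25 cells. CD14, a monocyte marker, measured 504 ± 27.6 with DMSO and 379 ± 97.0 with squamocin in SCC15 cells and 351 ± 43.5 and 4.81 ± 2.15 in SCC25 cells (SD, n = 3), and PTPRC, the defining leukocyte marker, was not listed in SCC25 cells. The part of these shifts in the results below was not tested.

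Because several of these genes are known NF-kappaB targets, their promoters were read from the RefSeq table (GRCh38.p14), which held 14 transcription start sites of 8 of the 10 genes. RELB and NFKBIE were not among them. The 250 bases before each start were searched on both strands for the letters GGGNNNNNCC and for the narrower kappaB consensus, whose matches are all among those of GGGNNNNNCC. The consensus occurred in 9 of the 14 windows, belonging to 7 of the 8 genes (all but RELA), and in 9.96% of the 35116 windows of the same length in the table. The looser letters occurred in windows of all 8 genes and in 54.4% of all windows. A match is a run of letters and not a binding site. The NFKBIA window is shown whole because the estimated log2 fold change of NFKBIA was above those of the other 9 genes in both cell lines, with all libraries and the authors' size factors. It covers chr14:35404750-35404999 on the minus strand and lies upstream of the annotated gene, with the consensus match in capitals, 81 to 72 bases before the start:
NFKBIA: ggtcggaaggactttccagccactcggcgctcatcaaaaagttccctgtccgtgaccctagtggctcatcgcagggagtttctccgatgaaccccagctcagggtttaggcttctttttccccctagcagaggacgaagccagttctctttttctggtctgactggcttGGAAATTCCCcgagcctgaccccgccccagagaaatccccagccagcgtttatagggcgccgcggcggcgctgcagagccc

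For comparison with NFKBIA, the stretches that hold the matches of the other genes are shown with 9 bases on each side and the match in capitals. All read 5′ to 3′ along the plus strand, on which these genes lie. They are at chr4:102501301-102501328 (NFKB1), chr10:102394462-102394490 and chr10:102394491-102394518 (NFKB2, site 1 and site 2), chr2:60881518-60881546 (REL), chr19:38899932-38899960 (NFKBIB), chr3:101827758-101827785 (NFKBIZ), and chr6:137867183-137867210 and chr6:137867195-137867222 (TNFAIP3, site 1 and site 2):
NFKB1: gacgtcagtGGGAATTTCCagccaggaa
NFKB2 site 1: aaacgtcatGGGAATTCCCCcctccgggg
NFKB2 site 2: ggccgagaaGGGGCTTTCCcggccctga
REL: gtcagccgcGGGAAATTCCCctcccgcca
NFKBIB: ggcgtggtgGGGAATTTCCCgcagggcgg
NFKBIZ: ttttggtctGGGAATTTCCagtgtgcag
TNFAIP3 site 1: cgtgactttGGAAAGTCCCgtggaaatc
TNFAIP3 site 2: aagtcccgtGGAAATCCCCgggcctaca
By the GENCODE release 44 annotation, the matches of NFKB1, NFKBIZ and TNFAIP3 lie upstream of the gene (those of TNFAIP3 fall within the first bases of the longer span that the deposited table gives for it), those of NFKB2 and REL in annotated exons, and that of NFKBIB in an intron. NFKB1 and NFKBIZ hold the same 10 letters, which also lie within the longer match of NFKBIB. On the opposite strand, the match of NFKBIA reads as these letters, and that of REL contains them. A further pair of matches of NFKB2 and 1 of NFKBIZ lie before other starts of these genes and are not shown.

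Squamocin raised the mRNA of most of these genes. In SCC15 cells 8 of the 10 rose and 0 fell, and in SCC25 cells 7 rose and 2 fell (limma on log2 values with 1 added to each normalized count, adjusted p under 0.05 after Benjamini-Hochberg adjustment over all genes tested). Squamocin changed a large part of the transcriptome, and against that background 30.9% of the genes tested rose and 30% fell in SCC15 cells, and 38.3% rose and 38.5% fell in SCC25 cells. NFKBIA, NFKBIE, NFKB2, RELB, NFKBIB and TNFAIP3 rose in both cell lines (6 of 10, beside 22.1% of the 14454 genes tested in both), and 0 of 10 fell in both (18.6% of all). All squamocin libraries lay above all DMSO libraries for 8 of 10 genes in SCC15 cells (35.7% of all genes tested) and for 7 of 10 in SCC25 cells (39.4%). The median log2 fold change of the 10 genes was 1.32 in SCC15 and 0.89 in SCC25 cells, beside 0.012 and -0.015 over all genes tested. All 10 passed the minimum mean of 10 normalized counts in both cell lines.

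**Figure D1:**
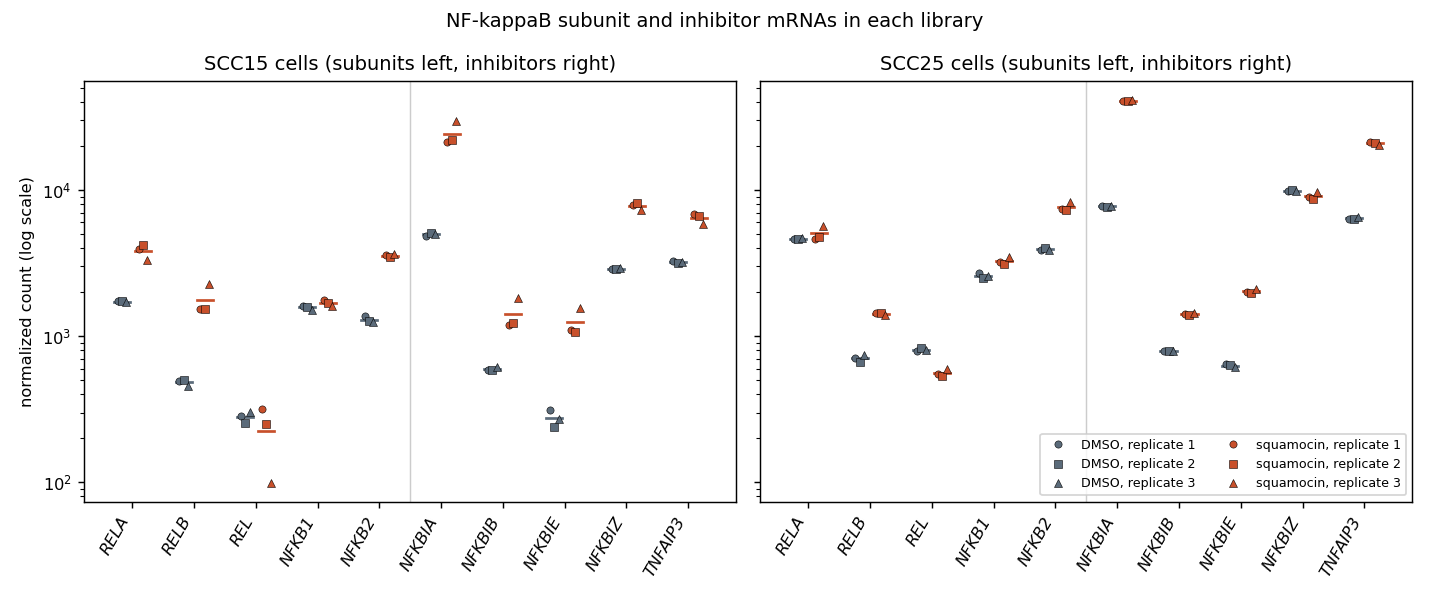
Normalized counts (log axis) of the 5 subunits and 5 inhibitors in each of the 12 libraries, with SCC15 cells on the left and SCC25 cells on the right; points are libraries, marker shapes are replicate numbers and bars are group means. NFKBIA, at 4823 to 5091 with DMSO and 21179 to 29467 with squamocin in SCC15 cells, has all squamocin points above all DMSO points in both panels, and REL in SCC15 cells shows 1 squamocin library far below the other 5.

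Of the subunits, the activating subunits RELA, RELB and REL carry a transactivation domain. RELA (p65; ENSG00000173039, chromosome 11, 65653596 to 65663094 of GRCh38, minus strand) is the main activating partner of the canonical pathway. In SCC15 cells its normalized counts were 1730, 1728 and 1717 with DMSO and 3954, 4181 and 3342 with squamocin. The groups did not overlap, and RELA rose by a log2 fold change of 1.14 ± 0.10 (SE, n = 3 per group, limma adjusted p = 1.12e-04). In SCC25 cells the counts were 4587, 4643 and 4682 with DMSO and 4634, 4806 and 5700 with squamocin. Here the groups overlapped, and the log2 fold change of 0.12 (95% CI -0.024 to 0.26) did not pass the test (limma adjusted p = 0.117). It passed without squamocin replicate 1 (0.17, limma adjusted p = 0.0342) and was -0.092 when the libraries were scaled to equal totals. Exons of RELA overlap those of the antisense RELA-DT by 103 bases, and whether reads were counted by strand is not given in the sources used here.

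RELB (ENSG00000104856, chromosome 19, 45001430 to 45038198, plus strand), the activating partner of the non-canonical pathway, was raised in both cell lines. In SCC15 cells it measured 494, 499 and 454 with DMSO and 1524, 1540 and 2260 with squamocin. Squamocin replicate 3 was the highest library, and the other 2 were also above all 3 DMSO libraries. The log2 fold change was 1.85 ± 0.16 (SE, n = 3 per group, limma adjusted p = 9.74e-05), and 1.67 without that library. The SCC25 values of RELB were 710, 663 and 739 with DMSO and 1441, 1438 and 1400 with squamocin, a log2 fold change of 1.02 ± 0.056 (SE, n = 3 per group, limma adjusted p = 4.34e-09).

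REL (c-Rel; ENSG00000162924, chromosome 2, 60881521 to 60931610, plus strand), best known from lymphocytes, was the subunit with the lowest level per transcript length. In normalized counts, RELB (mean 704) was below REL (mean 809) in SCC25 cells with DMSO. REL was lower with squamocin than with DMSO in SCC25 cells. There it measured 791, 834 and 801 with DMSO and 550, 535 and 598 with squamocin. The groups did not overlap, and REL fell by 0.53 ± 0.064 on the log2 scale (SE, n = 3 per group, limma adjusted p = 7.34e-06). In SCC15 cells the counts were 282, 255 and 302 with DMSO and 318, 252 and 99.5 with squamocin. Only squamocin replicate 3 was far below the DMSO libraries. The log2 fold change of -0.48 (95% CI -1.38 to 0.42) did not pass the test (limma adjusted p = 0.309), and it was 0.018 without that library. A long non-coding RNA with no name in the annotation, ENSG00000267520, shares 5702 exonic bases with REL on the same strand.

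NFKB1 and NFKB2 encode the precursors p105 and p100, which are processed to the DNA-binding subunits p50 and p52 and which also act as IkB proteins themselves. NFKB1 (ENSG00000109320, chromosome 4, 102501329 to 102617302, plus strand) changed little. In SCC15 cells it measured 1619, 1584 and 1515 with DMSO and 1767, 1688 and 1610 with squamocin, and the groups overlapped. The log2 fold change of 0.10 (95% CI -0.086 to 0.29, limma adjusted p = 0.300) became 0.14 without squamocin replicate 3, which passed the test (limma adjusted p = 0.0207), and turned to -0.40 with equal library totals (limma adjusted p = 0.0194). In SCC25 cells NFKB1 measured 2695, 2493 and 2584 with DMSO and 3212, 3110 and 3457 with squamocin. The groups did not overlap, and NFKB1 rose by 0.33 ± 0.050 on the log2 scale (SE, n = 3 per group, limma adjusted p = 5.77e-05).

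NFKB2 (ENSG00000077150, chromosome 10, 102394110 to 102402529, plus strand) rose in both lines. It measured 1374, 1260 and 1258 with DMSO and 3598, 3456 and 3622 with squamocin in SCC15 cells. The 3 squamocin libraries were close together here, replicate 3 included, and the log2 fold change was 1.46 ± 0.080 (SE, n = 3 per group, limma adjusted p = 1.97e-05). In SCC25 cells NFKB2 measured 3882, 4012 and 3897 with DMSO and 7362, 7315 and 8225 with squamocin, a log2 fold change of 0.96 ± 0.048 (SE, n = 3 per group, limma adjusted p = 1.92e-09).

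Of the inhibitors, NFKBIA, NFKBIB and NFKBIE encode the classical IkB proteins (IkB-alpha, IkB-beta and IkB-epsilon), and all 3 rose in both cell lines. NFKBIA (ENSG00000100906, chromosome 14, 35401511 to 35404749, minus strand) is the fast feedback inhibitor, resynthesised as soon as NF-kappaB enters the nucleus. In SCC15 cells it measured 4823, 5091 and 5006 with DMSO and 21179, 22108 and 29467 with squamocin, which was 4.88-fold in the means. The log2 fold change was 2.27 ± 0.14 (SE, n = 3 per group, limma adjusted p = 2.75e-05), and 2.12 without squamocin replicate 3. In SCC25 cells it measured 7829, 7613 and 7738 with DMSO and 40541, 40720 and 41238 with squamocin, a 5.28-fold difference. The libraries of each group lay close together, and the log2 fold change was 2.40 ± 0.034 (SE, n = 3 per group, limma adjusted p = 3.10e-14).

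NFKBIE (ENSG00000146232, chromosome 6, 44258166 to 44265788, minus strand), a later feedback inhibitor that also acts on REL and RELA dimers, rose in both cell lines. It measured 311, 239 and 271 with DMSO and 1102, 1075 and 1570 with squamocin in SCC15 cells. The log2 fold change was 2.17 ± 0.17 (SE, n = 3 per group, limma adjusted p = 6.83e-05), and 2.00 without squamocin replicate 3. The interval of this change overlapped that of NFKBIA, and without DMSO replicate 1 the estimate for NFKBIE (2.27) was above that for NFKBIA (2.25). The SCC25 libraries held 642, 634 and 611 with DMSO and 2016, 1985 and 2110 with squamocin, a log2 fold change of 1.69 ± 0.051 (SE, n = 3 per group, limma adjusted p = 2.17e-11). The groups did not overlap in either line. NFKBIB (ENSG00000104825, chromosome 19, 38899700 to 38908893, plus strand), whose protein holds a more persistent pool of dimers, rose less. It measured 590, 583 and 614 with DMSO and 1194, 1227 and 1822 with squamocin in SCC15 cells (1.22 ± 0.16 on the log2 scale, SE, n = 3 per group, limma adjusted p = 6.44e-04, and 1.02 without squamocin replicate 3). In SCC25 cells it measured 794, 792 and 794 with DMSO and 1410, 1396 and 1438 with squamocin (0.83 ± 0.049, SE, n = 3 per group, limma adjusted p = 7.66e-09). Exons of NFKBIB overlap those of SIRT2 on the other strand by 40 bases.

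The remaining inhibitors act elsewhere in the pathway, and their responses in the cell lines were unlike each other. NFKBIZ (IkB-zeta; ENSG00000144802, chromosome 3, 101827991 to 101861022, plus strand) is an atypical nuclear member of the IkB family that can also activate secondary target genes. In SCC15 cells it measured 2872, 2896 and 2917 with DMSO and 7945, 8164 and 7306 with squamocin, a log2 fold change of 1.43 ± 0.084 (SE, n = 3 per group, limma adjusted p = 2.44e-05). The SCC25 counts of NFKBIZ were 9874, 10085 and 9809 with DMSO and 8931, 8701 and 9691 with squamocin. With squamocin NFKBIZ was lower there by a small margin without overlap (-0.13 ± 0.044, SE, n = 3 per group, limma adjusted p = 0.0205). That call was lost without squamocin replicate 1 or 2 or DMSO replicate 1 or 2 (limma adjusted p = 0.0544 to 0.0827). Exons of NFKBIZ share 194 bases with NXPE3 on the same strand.

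TNFAIP3 (A20; ENSG00000118503, chromosome 6, 137867188 to 137883312, plus strand) encodes a ubiquitin-editing enzyme that shuts off signalling upstream of the IkB kinase. It rose in both cell lines. In SCC15 cells it measured 3279, 3168 and 3222 with DMSO and 6807, 6668 and 5832 with squamocin, a log2 fold change of 0.99 ± 0.092 (SE, n = 3 per group, limma adjusted p = 1.32e-04). TNFAIP3 in SCC25 cells measured 6351, 6341 and 6576 with DMSO and 21344, 20877 and 20309 with squamocin. This rise, 1.70 ± 0.037 on the log2 scale (SE, n = 3 per group, limma adjusted p = 1.17e-12), was close to that of NFKBIE in SCC25 cells. Exons of TNFAIP3 overlap those of the antisense WAKMAR2 by 95 bases.

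**Figure D2:**
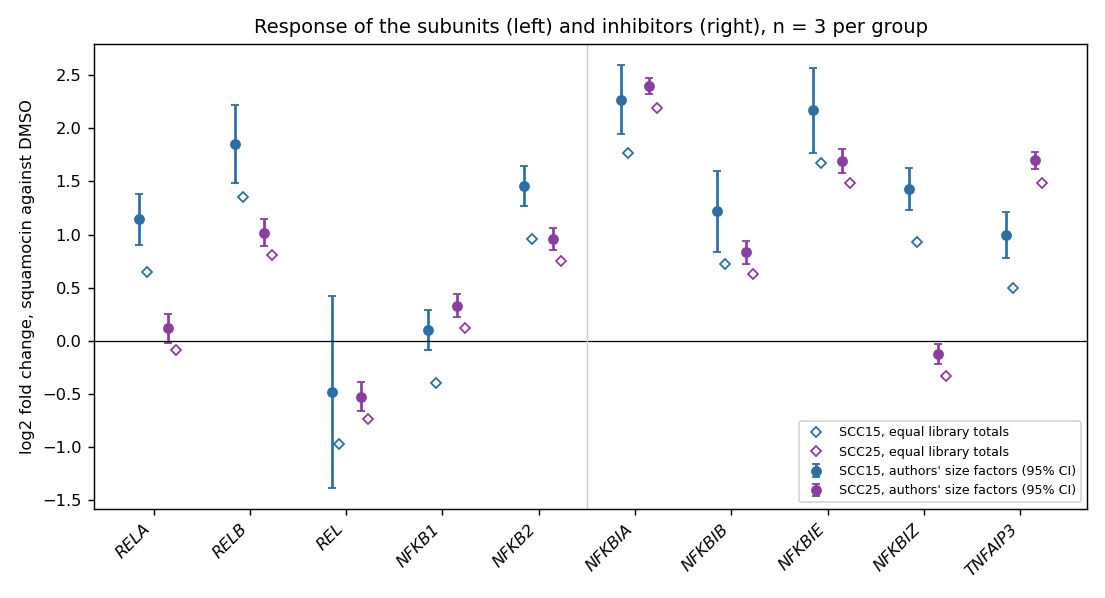
Log2 fold changes, squamocin against DMSO, of each gene in SCC15 (blue) and SCC25 cells (purple), n = 3 per group; filled points are limma estimates with 95% confidence intervals, and open diamonds are the estimates after scaling to equal library totals. NFKBIA stands at 2.27 and 2.40, NFKBIZ at 1.43 and -0.13, and the diamonds of NFKB1 in SCC15 cells and RELA in SCC25 cells lie below 0.

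The scaling of the libraries bears on the size of these changes. When the libraries were instead scaled to equal totals, the median log2 fold change of all genes moved to -0.48 in SCC15 and -0.22 in SCC25 cells, and every gene of the set moved down with it. Of all genes tested, 14.8% then rose and 50.5% fell in SCC15 cells, and 30.4% rose and 47.4% fell in SCC25 cells. All 8 genes that rose in SCC15 cells and all 7 that rose in SCC25 cells also rose under that scaling, with NFKBIA at 1.77 and 2.19 and TNFAIP3 at 0.50 and 1.49, and NFKB1 then fell in SCC15 cells. A ratio between 2 genes of the same library does not depend on the scaling. The log2 ratio of NFKBIA to RELA, an inhibitor against the subunit it binds, was 1.48, 1.56 and 1.54 with DMSO and 2.42, 2.40 and 3.14 with squamocin in SCC15 cells. In SCC25 cells it was 0.77, 0.71 and 0.72 with DMSO and 3.13, 3.08 and 2.85 with squamocin. Thus the mean ratio was higher with squamocin by 2.19-fold in SCC15 and by 4.88-fold in SCC25 cells, and without squamocin replicate 3 the difference in SCC15 cells was 0.88 on the log2 scale instead of 1.13.

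The ratio of NFKB2 to NFKB1 and that of RELB to RELA set the non-canonical genes against their canonical counterparts. The log2 ratio of NFKB2 to NFKB1 was -0.28 ± 0.047 with DMSO and 1.08 ± 0.081 with squamocin in SCC15 cells (SD, n = 3). In SCC25 cells it was 0.60 ± 0.080 and 1.23 ± 0.028 (SD, n = 3). The log2 ratio of RELB to RELA was -1.84 ± 0.069 and -1.13 ± 0.49 in SCC15 cells (SD, n = 3), where squamocin replicate 3, at -0.56, was far above replicates 1 and 2, at -1.37 and -1.44. The difference was 0.71 with it and 0.43 without it, which is a change of over 1.5 times. In SCC25 cells the ratio was -2.72 ± 0.077 and -1.82 ± 0.18 (SD, n = 3). The groups did not overlap in any of the 6 comparisons (3 ratios in 2 cell lines). The two-sided exact permutation p was 0.1 in each, before and after adjustment over the 6, which is the smallest that 3 against 3 libraries allow.

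**Figure D3:**
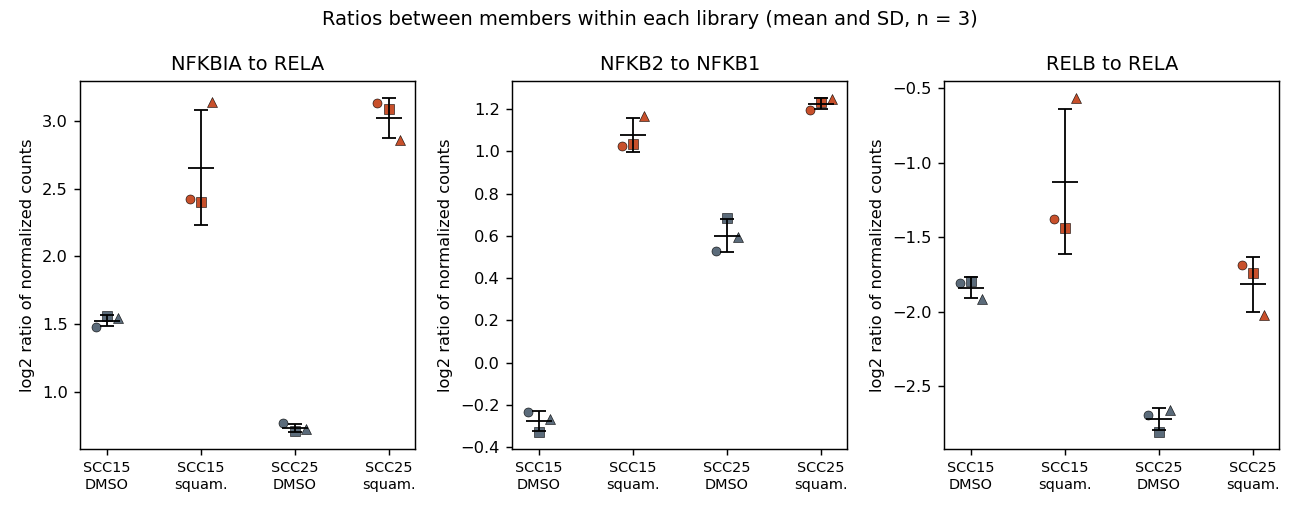
Log2 ratios of normalized counts within each library for NFKBIA to RELA, NFKB2 to NFKB1 and RELB to RELA; points are libraries (shapes are replicate numbers), and bars with whiskers are mean and SD, n = 3. With squamocin all 3 ratios are above DMSO in both cell lines, and squamocin replicate 3 of SCC15 stands above its group in NFKBIA to RELA (3.14) and RELB to RELA (-0.56).

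Levels of different genes were compared in RPKM, the reads per kilobase of transcript scaled to the reads of the library, with the length of the MANE Select transcript (the 1 reference transcript per gene shared by GENCODE and RefSeq). NFKBIA had the highest level in each of the 4 groups, at 206 ± 5.61 RPKM with DMSO and 704 ± 55.6 with squamocin in SCC15 cells, and 271 ± 3.43 and 1240 ± 21.1 in SCC25 cells (SD, n = 3). REL had the lowest level, at 1.63 ± 0.14 and 0.95 ± 0.53 in SCC15 and 3.98 ± 0.11 and 2.39 ± 0.16 in SCC25 cells (SD, n = 3). Both placements were the same with the length of all annotated exons. In SCC15 cells with DMSO, NFKBIZ (47.6), TNFAIP3 (44.6), RELA (44.2), NFKBIB (32.2), NFKB2 (27.8), NFKB1 (25.0), RELB (13.8) and NFKBIE (7.54 RPKM) lay in between, and TNFAIP3 and RELA were the only neighbours whose libraries overlapped. With squamocin the order was NFKBIZ (91.5), RELA (70.1), TNFAIP3 (63.6), NFKB2 (54.0), NFKBIB (53.5), RELB (35.5), NFKBIE (24.1) and NFKB1 (19.1 RPKM). There each gene from NFKBIZ to NFKB2 overlapped the next in line.

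In SCC25 cells with DMSO the order below NFKBIA was NFKBIZ (138), RELA (100.8), TNFAIP3 (75.3), NFKB2 (71.3), NFKBIB (36.4), NFKB1 (34.9), RELB (17.1) and NFKBIE (14.7 RPKM), without overlap between neighbours. With squamocin TNFAIP3 (212 RPKM) was next to NFKBIA. NFKB2 (120), NFKBIZ (110) and RELA (95) followed and overlapped in turn, and NFKBIB (56.2), NFKBIE (41.2), NFKB1 (38.1) and RELB (29.9 RPKM) came last, of which NFKBIE and NFKB1 overlapped. Thus TNFAIP3 moved from below NFKBIZ and RELA to above them. With the length of all exons instead, NFKB1 ranked 9th in all 4 groups, and TNFAIP3 ranked above RELA in SCC25 cells with DMSO too. The cell lines were normalized separately, and no level is compared between them.

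The response itself was compared between the cell lines by a limma contrast, the log2 fold change in SCC25 minus that in SCC15 cells. It differed for 6 of the 10 genes, beside 52.2% of all genes tested in both lines. NFKBIZ differed by -1.55 (95% CI -1.76 to -1.34, limma adjusted p = 1.10e-07), with opposite directions in the lines. RELA differed by -1.03 (95% CI -1.31 to -0.74, limma adjusted p = 3.39e-05) and RELB by -0.83 (95% CI -1.22 to -0.45, limma adjusted p = 0.00153), both with the higher response in SCC15 cells. TNFAIP3 was the gene with the higher response in SCC25 cells, by 0.70 (95% CI 0.49 to 0.92, limma adjusted p = 8.57e-05). These 4 differences were also called with equal library totals, at -1.26, -0.74, -0.55 and 0.99.

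The other differences depended on the settings, and equal library totals removed some calls and added others. NFKB2 differed by -0.50 (95% CI -0.71 to -0.29, limma adjusted p = 7.75e-04), which equal library totals reduced to -0.21 (limma adjusted p = 0.131). NFKBIE differed by -0.48 (95% CI -0.88 to -0.073, limma adjusted p = 0.0468), and this call was lost with equal library totals (-0.19) and without any 1 of 8 libraries, namely DMSO replicate 2 or 3 of SCC15 or any library of SCC25 (-0.50 to -0.38, limma adjusted p = 0.0634 to 0.120). For NFKBIA the difference was 0.13 (95% CI -0.19 to 0.46, limma adjusted p = 0.486) and for NFKB1 0.23 (95% CI 0.022 to 0.43, limma adjusted p = 0.0600). With equal library totals these were 0.42 (limma adjusted p = 0.00219) and 0.52 (limma adjusted p = 0.00542) and passed the test. The difference was, for NFKBIB, -0.39 (95% CI -0.77 to -0.0027, limma adjusted p = 0.0841) and for REL -0.047 (95% CI -0.96 to 0.86, limma adjusted p = 0.934). Without squamocin replicate 3 of SCC15, all 10 differed, with NFKBIA at 0.28, NFKB1 at 0.19, NFKBIB at -0.19 and REL at -0.55. In that fit 4825 of all 14454 genes had a called positive difference and 4699 a negative one, against 3761 and 3779 with all libraries. NFKB1 and NFKBIB were also called without squamocin replicate 1 of SCC15 (0.26 and -0.49), and NFKBIB without replicate 2 (-0.47).

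The pattern of NFKBIA over the 12 libraries was set beside those of the 10104 genes with a mean of at least 100 in each line, after centring log2 values within each line. The Pearson correlation was highest for RSRP1 (0.999), RIPK2 (0.998), PHF1 (0.998), HERPUD1 (0.998) and ARF4 (0.998). RIPK2 encodes the kinase that links NOD receptors to NF-kappaB, HERPUD1 a component of ER-associated degradation, and ARF4 a small GTPase of the Golgi. Of the other 9 genes of the set, NFKBIE (0.983), NFKB2 (0.966), NFKBIB (0.963), TNFAIP3 (0.961) and RELB (0.948) were above 0.9. NFKB1 (0.806), RELA (0.721), NFKBIZ (0.610) and REL (-0.640) were lower. The libraries share cell line and treatment, so these values describe mostly the step between treatments and have no p.

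Genes around the 10 were counted in lists written from general knowledge of the pathway, with the calls of the same fits. The counts of each list stand against the shares over all genes given above, which were 30.9% higher and 30% lower in SCC15 and 38.3% and 38.5% in SCC25 cells, and with equal library totals 14.8% and 50.5%, and 30.4% and 47.4%. Of 4 other IkB family members and cofactors, 3 rose in both cell lines. NFKBID, an atypical nuclear IkB, rose by 1.75 on the log2 scale in each (limma adjusted p = 2.49e-05 in SCC15 and 7.35e-10 in SCC25). BCL3, a nuclear IkB that partners p50 and p52, rose by 1.18 and 2.13, and NFKBIL1 by 1.159 and 0.27, of which the last did not pass with equal library totals (0.063). NKRF, a repressor, fell in SCC15 cells. In this list and in those below, the first of each pair of values is that of SCC15 cells.

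Of the 28 kinases and signalling proteins upstream, 11 rose and 8 fell in SCC15 cells and 14 rose and 11 fell in SCC25 cells, with medians of 0.15 and 0.14. With equal library totals these counts were 5 and 13, and 10 and 13. Both pairs in SCC15 cells and the pair with equal library totals in SCC25 cells were near the shares over all genes. So was the count of 11 that fell in SCC25 cells. The count of 11 in SCC15 cells was 7, 7 and 6 without DMSO replicate 1, 2 and 3. Over all 15902 genes tested, 3953, 3954 and 3902 then rose instead of 4921. RBCK1, a subunit of the linear ubiquitin ligase, rose by 1.82 and 1.70, and MAP3K8 (TPL2), the kinase held by p105, rose by 1.59 and 1.81. RIPK1, the kinase of the TNF receptor complex, fell by 0.93 and 2.09. SHARPIN, another subunit of that ligase, was opposite (0.68 and -0.62), as was the paracaspase MALT1 (-0.48 and 0.62). The rise of SHARPIN did not pass with equal library totals (0.18). Of the subunits of the IkB kinase complex, IKBKB and IKBKG fell and CHUK rose in SCC25 cells, and none passed the test in SCC15 cells. With equal library totals CHUK fell in SCC15 cells (-0.32, limma adjusted p = 0.0200). The fall of IKBKG (-0.59) was not called without squamocin replicate 1 or DMSO replicate 3 of SCC25 (limma adjusted p = 0.0524 and 0.0626).

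Of 18 other negative regulators, 10 rose and 6 fell in SCC15 cells and 11 rose and 4 fell in SCC25 cells, with medians of 0.42 and 0.34, and with equal library totals 4 rose and 6 fell, and 9 rose and 7 fell. PDLIM2, a ubiquitin ligase for nuclear RELA, rose by 1.27 and 2.39. RNF11, a member of the A20 complex, rose by 0.69 and 1.56, the first of which did not pass with equal library totals (0.19). TNIP3, an A20-binding protein, fell by 1.40 and 1.08. TRAFD1 (0.36 and -0.67) and SPATA2 (-0.45 and 0.34) were called in opposite directions. With equal library totals TRAFD1 was -0.14 in SCC15 cells and did not pass, and SPATA2 was 0.13 in SCC25 cells and did not pass.

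Of 28 ligands and receptors, 12 of the 22 tested rose and 7 fell in SCC15 cells, whereas 8 of the 27 tested rose and 15 fell in SCC25 cells (medians 0.45 and -0.27). With equal library totals 6 rose and 9 fell, and 7 rose and 15 fell. TNF, the classical inducer of the pathway, rose in both. In SCC15 cells it measured 1.39 ± 0.45 with DMSO and 54.7 ± 15.2 with squamocin, a few reads per DMSO library, and in SCC25 cells 1020 ± 57.3 and 8333 ± 304 (SD, n = 3; 3.03 on the log2 scale, limma adjusted p = 1.22e-13). LTB, a ligand of the non-canonical pathway, measured 3.39 ± 1.60 and 30.2 ± 11.5 in SCC15 cells (SD, n = 3), and it was called higher in both lines, by 0.92 on the log2 scale in SCC25 cells. TLR3, a receptor for double-stranded RNA, fell by 2.11 and 1.43. The cytokines IL1B (1.48 and -0.68) and IL1A (0.88 and -0.51) were opposite, and their responses differed between the lines by -2.16 and -1.39 (limma adjusted p = 1.70e-06 and 2.48e-06), and by -1.95 and -1.27 without squamocin replicate 3 of SCC15.

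Of 31 other kappaB target genes, 17 of the 27 tested rose and 3 fell in SCC15 cells, and 17 of the 28 tested rose and 8 fell in SCC25 cells, with medians of 0.83 and 1.00. The fallen genes in SCC15 cells numbered 6 without squamocin replicate 3, where 5920 of all 15902 genes tested fell instead of 4773. With equal library totals 13 rose and 8 fell in SCC15 cells, and 17 rose and 9 fell in SCC25 cells. Of the 27 tested in both lines, 12 rose in both and 1 fell in both, beside 22.1% and 18.6% of all genes. Another 5 went in opposite directions, and the share of all genes that did so was not counted. CSF2 (GM-CSF) rose by 4.62 and 3.67, the chemokine CXCL3 by 3.11 and 3.33, and the stress gene GADD45B by 2.73 and 3.32. The first value of CSF2 rests on a low DMSO level. In SCC15 cells CSF2 measured 6.59 ± 3.22 with DMSO and 181 ± 55.2 with squamocin (SD, n = 3). The neutrophil chemokine CXCL8 was opposite, at 282 ± 13.1 with DMSO and 2144 ± 571 with squamocin in SCC15 cells and 9725 ± 136 and 6014 ± 65.6 in SCC25 cells (SD, n = 3), a difference in response of -3.59 (limma adjusted p = 3.41e-08), and of -3.38 without squamocin replicate 3 of SCC15. IL6 went the other way, from 5490 ± 181 to 3510 ± 1016 in SCC15 cells and from 75.2 ± 9.13 to 374 ± 41.6 in SCC25 cells (SD, n = 3), a difference of 2.98 (limma adjusted p = 5.02e-07), and of 3.21 without squamocin replicate 3 of SCC15. The fall of IL6 in SCC15 cells was no longer called without squamocin replicate 2 (-0.60, limma adjusted p = 0.0507) or DMSO replicate 2 (-0.66, limma adjusted p = 0.0536).

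**Figure D4:**
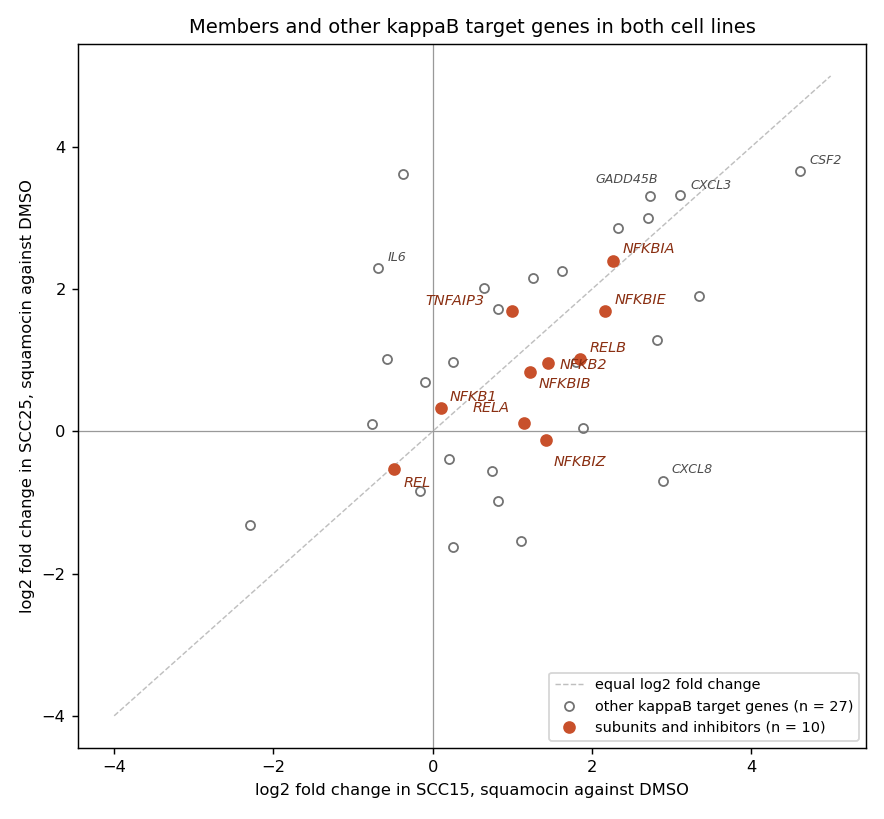
Log2 fold change in SCC15 (x axis) and SCC25 cells (y axis), squamocin against DMSO, of the 10 subunits and inhibitors (filled) and of 27 other kappaB target genes tested in both lines (open); the dashed line marks equal values. NFKBIA lies at 2.27 and 2.40 near the line, RELA and NFKBIZ lie close to 0 on the y axis, and CXCL8 and IL6 lie in opposite quadrants.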

How the data were processed

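Total RNA from SCC15 and SCC25 cells was sequenced by the authors, aligned to GRCh38 with HISAT2 2.0.5 and counted per gene with featureCounts 1.5.0-p3. For each cell line separately, the authors then divided every library's counts by its size factor, and this normalized signal is what was deposited. The SCC25 columns are named FPKM in the deposited table but are not divided by length. Columns with the authors' group means, fold changes and p-values were not used. The size factors were recovered from the values, which gave whole reads for 100% of values (tolerance 0.01 reads). Groups follow the sample titles.

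limma 3.58.1 (R 4.3.3, moderated statistics with a mean-variance trend, two-sided) was fitted to log2 values, with 1 added to each normalized count, over genes with a mean of at least 10, with Benjamini-Hochberg adjustment at 0.05. The cell lines were compared by a contrast over 12 libraries. Alternatives were pseudocounts of 0.1 and 10, no filter, 10 counts in every library, TMM factors, equal library totals, count models on the whole reads (edgeR 4.0.16, DESeq2 1.42.0), a replicate block and each library left out. The genes and lists were chosen with earlier results of these data known. The text names all 10 genes, and of each list up to 3 genes with the largest mean change called in the same direction and up to 2 with the largest difference called in opposite directions. NKRF, IKBKB, IKBKG, CHUK, CD14, PTPRC, IRF1, IER3, CCL5 and TNFAIP2 were named after their values were seen, and the choice between transcript lengths for RPKM was made then too. The scripts were tested on simulated data. The result of 1 further marker list is not reported here.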

Additional observations from a re-analysis of the deposited data

Results flagged for a closer look

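The response to squamocin differed between the cell lines, by the limma contrast of the responses themselves, for 6 of the 10 genes. The log2 fold change in SCC25 minus that in SCC15 cells was -1.55 for NFKBIZ, -1.03 for RELA, -0.83 for RELB, -0.50 for NFKB2, -0.48 for NFKBIE and 0.70 for TNFAIP3. The share of all genes with such a difference was 52.2%. Groups of 3 libraries were not tested for single outlying values.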

How the results depend on the processing

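Of the 510 values of the members under other settings, 473 kept their direction and their side of the threshold, 16 lost the call, 14 gained it and 7 changed sign. Signs changed with equal library totals for NFKB1 in SCC15 cells (-0.40), RELA in SCC25 cells (-0.092) and the difference of REL between the lines (0.24). With 1 library left out, REL ranged from -0.81 to 0.018 in SCC15 cells and its difference from -0.55 to 0.29. Equal library totals gave 1 member lower in SCC15 cells instead of 0. With 1 library left out, 1 to 2 members were lower in SCC25 cells, and 5 to 10 members differed between the lines. Over all 14454 genes compared, the called differences then numbered 3415 to 4825 positive and 3376 to 4699 negative. Replicate numbers did not pair the samples (correlations of same-numbered libraries -0.051 to 0.0078), and with the replicate block 8 members were higher and 0 lower in SCC15, 7 higher and 2 lower in SCC25, and 6 differed, as without it. Of all members and libraries, the fewest reads were 80, of REL in squamocin replicate 3 of SCC15 cells. That library held 19792137 reads, the most of its group. The causes of these changes were not tested.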

Other observations

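Beyond the genes named by rule, 4 kappaB target genes were picked out after their values were seen. IRF1, a transcription factor of the interferon response, rose in both cell lines, from 2250 ± 57.3 to 11274 ± 493 normalized counts in SCC15 and from 3984 ± 65.9 to 28902 ± 689 in SCC25 cells (SD, n = 3). IER3, an immediate early gene, rose by 3.34 and 1.91 on the log2 scale. The chemokine CCL5 differed most between the lines of these 4, at 26907 ± 592 with DMSO and 21244 ± 5795 with squamocin in SCC15 cells, which did not pass the test (limma adjusted p = 0.119), and at 70.8 ± 10.6 and 880 ± 73.2 in SCC25 cells (SD, n = 3), a difference in response of 3.998 (limma adjusted p = 4.49e-08). TNFAIP2, a TNF-induced gene, fell from 82933 ± 1031 to 26804 ± 2161 in SCC25 cells (SD, n = 3) and measured 11253 ± 262 and 13542 ± 1859 in SCC15 cells (limma adjusted p = 0.107).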
